A study of Mus musculus with 18 samples.

Results

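Myod1 and Myog encode MyoD and myogenin, the transcription factors that commit myoblasts to muscle and drive them into myotubes. Their mRNAs were followed in mouse myotubes as isoforms defined by a 5′ and a 3′ end. Isoforms were counted to a gene when both ends lay on the plus strand inside a 4500-bp window of GRCm39 around it, on chromosome 7 for Myod1 and chromosome 1 for Myog. This gave 27 of the 13759 isoform entries of the 2 deposited tables, 17 of Myod1 and 10 of Myog. No entry of either strand lay only partly in a window. Of 7123 polysome entries 13 were Myod1 and 6 Myog, and of 6636 decay entries there were 4 of each.

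The assay, TIF-seq2, reads both ends of the same mRNA molecule. Myoblasts taken from gastrocnemius muscle of wild-type female mice were grown to confluence and turned into myotubes within 24 h by 1 µM SCH772984, an inhibitor of the kinase ERK, which every group shares. For polysome profiling, cells of 2 mice received 100 µg/ml cycloheximide for 5 min, which holds ribosomes on mRNA, and each lysate was split on a 10 to 50% sucrose gradient into 3 fractions, namely free RNA, light polysomes with 2 to 5 ribosomes and heavy ones with at least 6, which makes 6 libraries. For the decay assay, cells of 3 mice received 7.5 µg/ml actinomycin D, which stops transcription, and RNA was taken at 0, 3, 6 and 12 h, 12 libraries in all. The labels used here name neither the strain nor the age of the mice. Each table gives 1 coverage count and 1 derived value per isoform over all libraries of its assay, which is TE (translation efficiency) for the polysome assay and a half-life for the decay assay. No value of a single fraction, time or mouse could therefore be given, no difference could be compared with the variation among mice, and no test between conditions was made. No source names a unit for the half-lives, although sampling times are in hours, and TE carries no unit.

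MyoD and myogenin are basic helix-loop-helix proteins. They pair with E proteins and bind E-boxes in the promoters and enhancers of muscle genes; Id proteins block this by holding the E proteins. MyoD is already present in proliferating myoblasts, whereas myogenin appears as they leave the cell cycle and fuse. Both mRNAs are known targets of RNA-binding proteins that read U-rich, AU-rich or GU-rich stretches of the 3′ UTR, such as HuR, KSRP and CELF1.

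Summed coverage was 1601919 in the polysome table, where the lowest listed count was 11, and 3121491 in the decay table, where it was 21. Myod1 took 2016 counts (0.126%) of the first and 584 (0.0187%) of the second. Myog took 1005 counts (0.0627%) and 2427 (0.0778%). Myod1 thus had 2.01 times the coverage of Myog in the polysome table and 0.241 times in the decay table. The assay counts pairs of ends, so coverage was not divided by length. The decay counts add RNA from all 4 actinomycin D times, and the half-lives given further on differ between the genes; their part in the turned order was not tested. Fewer cells with a transcript and less of it per cell cannot be told apart. The most covered Myod1 isoform ranked 248 of 7095 nuclear entries by coverage in the polysome table and 1052 of 6593 in the decay table. The most covered Myog isoform ranked 367 and 273.

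Neither table names genes. Of the Myog entries, 2 in the polysome and 3 in the decay table begin with 25 nt that lie in the RefSeq promoter window of Myog, as all entries that start before its start codon do. That reference table has no entry for Myod1, whose identity rests on position. Markers were also looked up by the same match, from lists chosen with earlier results of these data known. Of 10 myotube markers, 6 were found in the polysome table and 5 in the decay table, among them skeletal actin Acta1 and the muscle creatine kinase Ckm. None of 20 listed markers of undifferentiated myoblasts, fibroblasts, endothelial, immune, fat or Schwann cells was named in either table. Of these, 13 have a promoter entry, and only 1843 and 1748 nuclear entries could be named at all, so this does not show that they were at 0.

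Myod1 used 1 polyadenylation site and many starts. All 13 polysome isoforms and all 4 decay isoforms ended at the same base, 46028520. The 3′ UTR was 702 nt long, with AAUAAA, the hexamer read by the cleavage and polyadenylation machinery, beginning 21 nt before the end. Such a hexamer or AUUAAA stood in the last 40 nt of 75.1% of the 4964 different nuclear 3′ UTRs of both tables. In the site the hexamer is in capitals, and this and the following sequences are DNA letters of the deposited UTRs, 5′ to 3′.
Myod1 3′ end, chr7:46028491-46028520 (GRCm39, plus strand): ggtgttggaAATAAAgacgctaatttatac

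The main Myod1 start at 46025898 coincided with the annotated one, with a distance of 0 nt. It carried 1306 of 2016 polysome counts, or 64.8% (95% Wilson interval 62.7 to 66.8%), and 481 of 584 decay counts, or 82.4% (79.1 to 85.2%). These intervals cover counting error only. Another 3 starts lay between it and the start codon, which leaves leaders of 162, 83 and 56 nt in place of 199 nt. They held 92, 187 and 95 polysome counts. The starts with leaders of 83 and 56 nt were also found in the decay table, at the same bases, with 48 and 29 counts; the start at 162 nt was not listed there. Over the 3 starts present in both tables, the main one held 82.2% of the polysome counts (80.3 to 84.0%) and 86.2% of the decay counts (83.1 to 88.8%), and those intervals overlapped, while the shares over all starts did not.

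There were 8 polysome isoforms of Myod1 that began inside the coding region, between 20 and 586 nt after the first base of the start codon. Their coverage was 41, 24, 87, 45, 17, 20, 16 and 32 counts from the first to the last start, 282 in all or 14.0% of the gene (12.5 to 15.6%). For each of them the deposited 5′ UTR runs to the next AUG in the frame of MyoD, which lies 52, 115 or 208 codons after the main one. A decay isoform, starting 571 nt into the coding region, had 26 counts (4.45%, 3.06 to 6.44%). A polysome isoform from 46027828, with 54 counts, started within the 3′ UTR, spanned 693 nt and has no TE. Whether these are capped starts or 5′ ends of shortened RNA is not given in the tables. With 13 starts on 1 polyadenylation site, Myod1 stood beside few others. Only 35 of 3841 nuclear 3′ ends in the polysome table (0.911%) had as many, and the median was 1. Of 4274 nuclear 3′ ends in the decay table, 199 (4.66%) had 4 or more. These shares are not matched for coverage, and a 3′ end with few counts can list few starts. Summed per 3′ end, polysome coverage of Myod1 stood at percentile 96.2, while the median polysome entry had 33 counts. How far coverage accounts for the number of starts was not tested.

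**Figure D1:**
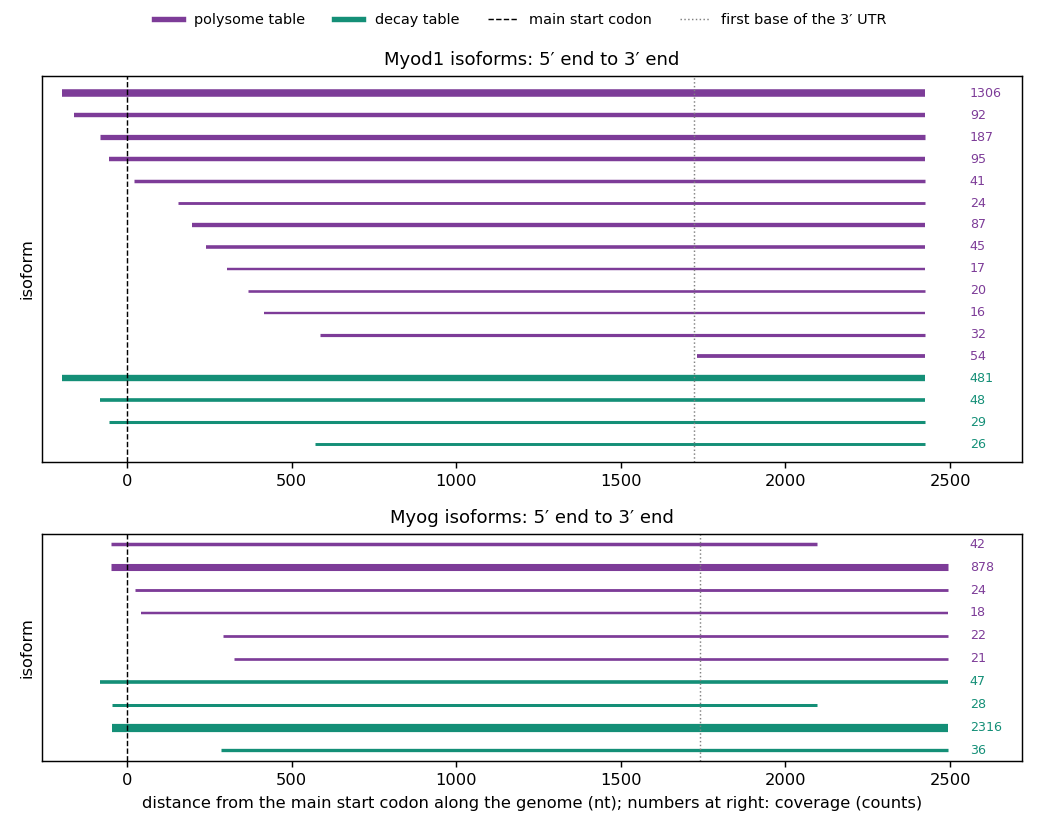
Isoforms of Myod1 (top) and Myog (bottom) drawn from 5′ to 3′ end against the distance in nt along the genome from the main start codon, with thicker lines for more coverage and the count at the right. Polysome isoforms are purple and decay isoforms green; every Myod1 isoform ends at the same base, 1 Myog isoform per table ends 396 nt early, and the most covered isoforms (1306 and 481 counts for Myod1, 878 and 2316 for Myog) start before the start codon.

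Myog had 1 dominant start and 2 polyadenylation sites. The main start lay at 134217745 in the polysome table and 3 nt further on, at 134217748, in the decay table. It carried 91.5% of the Myog counts in the polysome table (920 of 1005 with both 3′ ends) and 96.6% in the decay table. Its leader was 49 or 46 nt long, against a median of 109 nt over 8321 nuclear leaders, those of coding-region starts included. In the RefSeq promoter window, which runs from 250 nt before to 50 nt after the annotated start of GRCm38.p6, the main starts fell on positions 4 and 7.

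A second start, at 134217710, was found in the decay table with 47 counts (1.94%, 1.46 to 2.57%). By the deposited distances it lay 17 nt before the annotated start and the main polysome start 18 nt after it, so that the authors' annotation and the RefSeq start differ. On the RefSeq window the second start falls at position -32, ahead of a TATA-like TTTAAA at -28. Its 84-nt leader holds an AUG 25 codons before the main one, in the same frame and with no stop codon between, and that AUG overlaps the last A of TTTAAA. Among 32544 promoter windows, 1.39% had TTTAAA beginning 20 to 40 nt before the start on the sense strand. The window also holds CTATATTTAT at -64, 10 letters taken from the Myog window by position after it was seen, in the region where MEF2 factors are known to bind this promoter. It was found on either strand of 23 windows, 0.0707%, and Myog is among them because the letters were taken from it. The share expected of any 10 letters was not computed, so this share does not mark the stretch as rare. E-boxes (CANNTG, the same on both strands) numbered 2, with a median of 1. None read CAGCTG, which 16.4% of windows hold. Both stretches are shown because they lie upstream of the main starts, with the motif in capitals; the second start falls between the motifs.
Myog promoter, chr1:134289930-134289959 (RefSeq, GRCm38.p6, plus strand): gtggcgttggCTATATTTATctctgggttc
Myog promoter, chr1:134289964-134289993 (RefSeq, GRCm38.p6, plus strand): cagcagggagggTTTAAAtggcacccagca

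Coding-region starts made up a smaller share of the listed Myog counts than of the listed Myod1 counts. Here 4 polysome isoforms began 25, 43, 290 and 323 nt after the first base of the start codon, with 24, 18, 22 and 21 counts, together 8.46% (6.89 to 10.3%). The only decay isoform of this kind, at 286 nt, had 36 counts (1.48%, 1.07 to 2.05%). The polysome table lists no isoform below 11 counts, and Myog had 1005 counts there beside 2016 for Myod1. A start with the same share of its gene could therefore be listed for Myod1 and missing for Myog. How far this accounts for the lower polysome share was not tested. In the decay table, where the lowest count was 21, Myog had the higher coverage, 2427 counts beside 584. For the Myog coding-region starts the deposited 5′ UTR again ran to the next AUG in frame, 156 codons after the main one. The start at 25 nt is classed as an annotated transcript in the polysome table although it lies past the start codon; its deposited distance from the annotated start is 92 nt.

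The distal polyadenylation site of Myog, at 134220287, ended 963 of 1005 polysome counts (95.8%, 94.4 to 96.9%) and 2399 of 2427 decay counts (98.8%, 98.3 to 99.2%). The proximal site, 396 nt earlier at 134219891, was used at the same base in both tables, by the main start only. It ended 42 polysome counts (4.18%, 3.11 to 5.60%) and 28 decay counts (1.15%, 0.799 to 1.66%). The distal 3′ UTR of 754 nt has AAUAAA beginning 22 nt from its end, and the proximal one of 358 nt has neither hexamer in its last 40 nt. The 20 nt after the proximal site hold 5 A, at most 2 of them in a row. The sites are set side by side to show that difference, with the hexamer in capitals.
Myog distal 3′ end, chr1:134220258-134220287 (GRCm39, plus strand): aaaaaatgAATAAAgactggttgctatcag
Myog proximal 3′ end, chr1:134219862-134219891 (GRCm39, plus strand): cccccaaaatgaaaccgtttgagagacatg

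The leaders of both genes were free of upstream AUGs on the main start, and so were the shorter Myod1 leaders that end at the same start codon. Upstream AUGs, which can capture ribosomes ahead of the main reading frame, stood in 41.9% of the nuclear leaders. That set, used for all shares and medians here, also holds deposited 5′ UTRs of isoforms that start inside a coding region. In those the 5′ UTR is coding sequence, so the set is not one of annotated leaders alone. The GC content was 57.8% for the main Myod1 leader and 65.3% for the 49-nt Myog leader, beside a median of 61.9%. Neither began with a terminal oligopyrimidine tract. At position -3, the main base of the Kozak context, Myod1 has G and Myog has C; 83.0% of leaders have a purine there. The 12 nt before each start codon are given with that base in capitals.
Myod1 before the start codon, chr7:46026085-46026096 (GRCm39, plus strand): aggaactggGat
Myog before the start codon, chr1:134217782-134217793 (GRCm39, plus strand): ttttccgacCtg

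The regulators had similar TE values, both below the median. The main Myod1 isoform had a TE of 0.000566 and the main Myog isoform 0.000584, a ratio of 0.970. A median of 0.000742 was found over the 3517 nuclear isoforms covered by 30 or more counts with a TE above 0, with 0.000286 and 0.00174 at the 5th and the 95th percentile. Myod1 thus stood at percentile 31.1 and Myog at 33.2, inside the bulk of mRNAs. Both have 3′ UTRs longer than the median of 356.5 nt, and among isoforms with both UTR lengths within 1.5-fold of its own Myod1 was at percentile 44.6 (230 isoforms) and Myog at 36.1 (151 isoforms).

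Over all 12 Myod1 isoforms with a value, TE ran from 0.000409 to 0.000760, a 1.86-fold range. Isoforms that start before the start codon had 0.000566, 0.000578, 0.000705 and 0.000526, in order of shortening leaders of 199, 162, 83 and 56 nt. Coding-region starts had 0.000409 at 20 nt into the coding region, with 41 counts, and 0.000760 at 415 nt, with 16 counts; the other 6 lay between. TE showed no steady course with the position of the start, and the ranges of the isoforms starting before and after the start codon overlapped. With a coverage of at least 20, the SD of log2 TE was 0.244 over 10 Myod1 isoforms, against a median of 0.412 over 321 nuclear 3′ ends with 3 or more such isoforms. On the distal site Myog had an SD of 0.337 over 4 isoforms. The coding-region starts of Myog had TE values of 0.000397, 0.000385, 0.000635 and 0.000663, from the first to the last. The 2 nearest to the start codon were below the main isoform, and the 2 furthest above it.

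Half-lives set the regulators apart. The main Myod1 isoform had a half-life of 4.12 and the main Myog isoform one of 8.73, 2.12 times as long. The median of 5247 nuclear isoforms with at least 30 counts and a half-life above 0 was 10.8. The 5th and the 95th percentile were 6.50 and 19.9. Myog at percentile 22.7 therefore lay in the lower part of the range, whereas the Myod1 half-life was 38.0% of the median and 34 isoforms had a shorter one (percentile 0.658). With no coverage minimum, 123 of 6409 isoforms had a shorter one (percentile 1.93). Among those 34 none had as many counts as Myod1; their median coverage was 41.5. Among the 1053 isoforms with a coverage of at least 481 the main Myod1 isoform had the shortest half-life, and the next was at 6.83. Among the 273 with at least the 2316 counts of the main Myog isoform, Myog had the third shortest. Coverage in this table sums all times and may itself fall with half-life; the part of this in these ranks was not tested.

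All 4 Myod1 isoforms were short-lived. The isoforms with leaders of 83 and 56 nt had half-lives of 4.22 and 3.80, and the one starting 571 nt into the coding region had 5.20. Their percentiles among the isoforms with at least 30 counts were 0.696, 0.419 and 1.49. Those at 3.80 and 5.20 had only 29 and 26 counts, below that minimum. Without a minimum, 1.92% of 6409 isoforms had a shorter half-life than the main Myod1 isoform, against 0.648% of 5247 with it. The SD of log2 half-life over the 4 Myod1 isoforms was 0.192. The median was 0.459 over 381 nuclear 3′ ends with at least 3 isoforms of 20 or more counts. The 4 Myod1 isoforms share the 3′ UTR and differ only in the start, as far as the deposited ends show. The Myog isoforms were more spread than those of Myod1, with 9.06 for the start at 134217710, 8.73 for the main start, 12.4 for the main start with the proximal site and 5.21 for the coding-region start. Over the 3 on the distal site the SD was 0.447, near the median of 0.459. The 2 Myog isoforms that start before the start codon and end distally were close to each other. The coding-region isoform, on 36 counts, was just above the highest Myod1 value of 5.20.

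**Figure D2:**
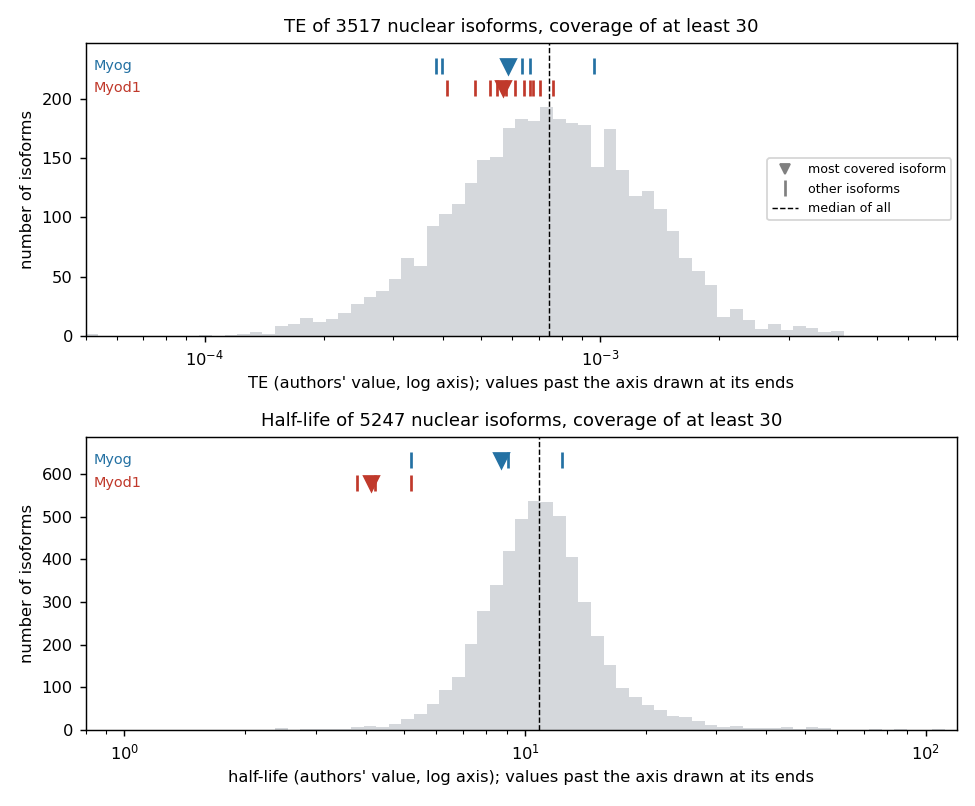
Number of nuclear isoforms by TE (top, 3517 isoforms) and by half-life (bottom, 5247 isoforms), both on log axes in the authors' values, with Myod1 isoforms in red and Myog isoforms in blue above the histograms. Triangles mark the most covered isoforms and the dashed line the median: in TE both genes lie among the bulk (0.000566 and 0.000584 against 0.000742), and in half-life all 4 Myod1 isoforms lie at the left edge (3.80 to 5.20 against 10.8).

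The 2 polyadenylation sites of Myog gave a pair of isoforms with the same start and leader. With the proximal site TE was 0.000965 (42 counts), and with the distal site 0.000584 (878 counts), a log2 difference of -0.72. Half-life was 12.4 (28 counts) and 8.73 (2316 counts), a log2 difference of -0.50. The isoform with the longer 3′ UTR was thus lower in both. Over all nuclear pairs with the same start, nested 3′ UTRs at least 100 nt apart and at least 20 counts in each isoform, TE was lower with the longer 3′ UTR in 86.2% of 320 pairs, and half-life was shorter in 60.7% of 596 pairs, so the direction of the Myog pair was that of most pairs. The median differences were -0.41 and -0.16, and Myog stood at percentile 26.7 for TE and 26.1 for half-life. Among pairs 300 to 500 nt apart it stood at 19.8 (48 pairs, median -0.41) and 20.9 (117 pairs, median 0.00). Pairs with 3′ UTRs under 50 nt apart, which are nearly the same molecule, had an SD of 0.453 for log2 TE (59 pairs) and 0.822 for log2 half-life (117 pairs). The half-life difference of Myog was smaller than that SD. The TE difference was larger than it, on 42 counts for the proximal isoform.

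**Figure D3:**
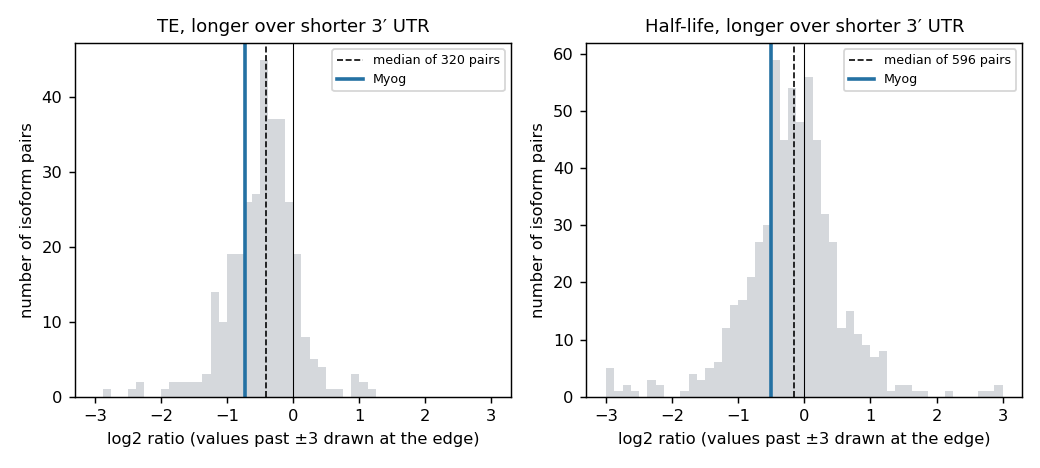
Number of isoform pairs by the log2 ratio of the longer over the shorter 3′ UTR, for TE (left, 320 pairs) and half-life (right, 596 pairs), with values past the axis drawn at its edge. The blue line is the Myog pair at -0.72 and -0.50, the dashed line the median of all pairs at -0.41 and -0.16, and the thin line a ratio of no difference.

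The 3′ UTRs of the regulators are alike in length and GC content (51.1% for Myod1, 49.1% for Myog to the distal site, median 50.2%) and differ in the motifs searched, on the sense strand. Myod1 holds the GU-rich element UGUUUGUUUGU, known as a binding site of the decay factor CELF1, which 46 of 4964 nuclear 3′ UTRs (0.927%) and 13 of 1136 with 500 to 1000 nt (1.14%) contain. The element was read from the Myod1 3′ UTR as its 2 overlapping copies of the shorter form UGUUUGU, which stood there 3 times in all; 0.616% of 3′ UTRs of 500 to 1000 nt had as many. Myog holds UGUUUGU once, which 13.6% of that length do. Myod1 also has 1 Pumilio motif (UGUANAUA; 10.5% of that length), 2 AUUUA pentamers (20.3% had as many) and 1 UAUUUAU (13.1%), which overlaps the first pentamer. Myog has 1 pentamer, upstream of the proximal site and so in both of its 3′ UTRs, no UAUUUAU and no Pumilio motif. It has 3 runs of 6 or more U (6.16% had as many) against 2 in Myod1, and 1 of the 3 remains before the proximal site. Neither gene had the AU-rich nonamer or the seed site of miR-206 (ACAUUCC), miR-133b (GGACCAA) or let-7a (CUACCUC). Of 3′ UTRs of 500 to 1000 nt, 5.99%, 5.46%, 4.49% and 4.67% hold them, so most lack each. Shorter seed matches were not searched. The stretches of Myod1 with the element, the Pumilio motif and the UAUUUAU are shown beside the Myog stretch with UGUUUGU, with the motif in capitals and T for U; in the third the capitals mark the pentamer. A match is a stretch of letters and was not tested for binding or decay.
Myod1 GU-rich element, chr7:46028030-46028059 (GRCm39, plus strand): tccttcagtTGTTTGTTTGTtttttcatgc
Myod1 Pumilio motif, chr7:46028350-46028379 (GRCm39, plus strand): atctattcgTGTAAATAagagttgcttggc
Myod1 AUUUA pentamer, chr7:46028392-46028421 (GRCm39, plus strand): cccttgggctatATTTAtctcccaggcatg
Myog UGUUUGU, chr1:134220074-134220103 (GRCm39, plus strand): ttttgtgtgtTGTTTGTaaagctgccgtct

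Other genes of the myogenic network came from a list of 68, chosen with earlier results of these data known, of which 47 have a promoter entry. A value and a coverage of at least 30 were found for 17 in the polysome table and 15 in the decay table. Half-life was above the median of 10.8 in 11 of the 15 and below it in 4, with a median of 12.5. Of the 15, 13 were above both regulators, 1 lay between them and 1 was below both; of all ranked isoforms 77.3% were above both, 22.0% between and 0.648% below, so the count above was near that of isoforms at large. The latter was Id3, the inhibitor that keeps E proteins from MyoD. Its only named isoform, whose start is not annotated, had a half-life of 0.917 on 55 counts, the lowest of all 5247. The 1 between was the embryonic myosin heavy chain Myh3 at 7.60. The 14 MyoD and myogenin targets, of which 13 were above Myog beside the same 77.3% of all isoforms, include skeletal actin Acta1 (12.5), Ckm (12.8) and the slow troponins Tnni1 (12.0), Tnnc1 (13.7) and Tnnt1 (14.4). The highest, desmin (Des, 52.0), rests on 101 counts of an isoform whose 3′ end is not annotated.

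In TE, of the 17 genes 7 were above the median of 0.000742 and 10 below. Below both regulators were 7 of them, and 10 were above both, beside 31.1% and 66.8% of all ranked isoforms. Those below were the MEF2 factor Mef2d (0.000489), Myh3 (0.000475), cardiac actin Actc1 (0.000468), the myosin-binding protein Mybph (0.000448), the decay factor Zfp36 (0.000360), M-cadherin Cdh15 (0.000337) and Des (0.000301). Among those above were Id3 (0.00104) and the cell-cycle inhibitor Cdkn1a (0.00197). No value of the other muscle regulatory factors Myf5 and Myf6 could be named in either table.

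**Figure D4:**
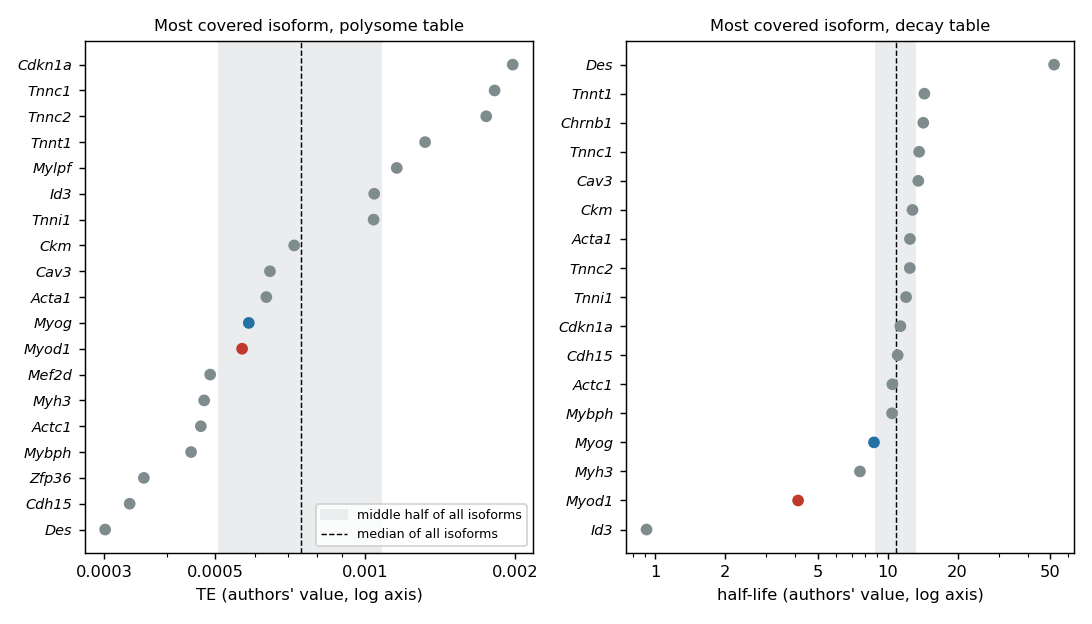
TE (left) and half-life (right) of the most covered isoform of each network gene that could be named and had a coverage of at least 30, on log axes in the authors' values, with Myod1 in red, Myog in blue and the other genes in grey. The band is the interquartile range of the ranked nuclear isoforms and the dashed line their median (0.000742 and 10.8); by half-life Myod1 (4.12) is lower than every gene shown except Id3 (0.917).

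The isoforms most like each regulator were sought among 519 named isoforms listed in both tables, by the distance between percentiles of TE and half-life, which are only 2 values per isoform. For Myod1 the nearest were Tubb2a, a beta-tubulin (TE 0.000542, half-life 6.83), Rpusd1 (0.000568 and 7.20) and Tmem150a (0.000595 and 7.22), at distances of 6.21, 8.06 and 8.82 percentile points. All 3 had longer half-lives than Myod1. With unnamed isoforms counted, these 3 ranked only 9, 14 and 15 by distance, so isoforms without a name lay nearer to Myod1. For Myog the nearest named isoforms were the chloride channel protein Clic4 (0.000594 and 8.81), Atpaf2 (0.000573 and 8.79) and Srprb (0.000574 and 8.52), at 1.33, 1.45 and 2.69 points. Counted the same way, they ranked 2, 3 and 4.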

How the data were processed

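Per the submitters' processing notes, bcl2fastq 2.20.0, cutadapt 1.16, UMI-tools 0.5.4, STAR 2.5.3a and the build GRCm39 were used. The formulas of TE and half-life and the clustering of ends were not given in the sources used here. Each isoform has, as deposited by the authors, a whole-number coverage count pooled over all libraries of an assay and 1 score, TE or half-life. Columns of single-library values number 0, which leaves library depths unknown. Wilson intervals of coverage shares cover counting error only.

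Ranks were taken over nuclear isoforms covered by 30 or more counts with a score above 0. Among all polysome entries, at any coverage, TE was missing in 845 and below 0 in 58. Among all decay entries the half-life was missing in 135 and below 0 in 50. Such entries have no place in the percentiles and medians. Other genes were named where the first 25 nt of a 5′ UTR lay in 1 gene's RefSeq promoter window (GRCm38.p6) on the same chromosome and strand; all genes of a network list and a marker list were looked up this way, and the 3 nearest named isoforms were taken by rule. Members and lists were chosen with earlier results of these data known. Alternatives were other coverage minimums, sets of isoforms and summaries. Functions were tested on simulated data. Python 3.11.15, pandas 2.3.3, scipy 1.17.1 and matplotlib 3.10.9 were used.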

Additional observations from a re-analysis of the deposited data

How the results depend on the processing

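No paired analysis was possible because the deposited tables give no value per mouse, which also leaves no replicate to leave out. Of 48 recomputed values over 12 results, 16 stayed within the 95% binomial interval of the reported value. For percentiles that interval treats isoforms as independent draws. It covers neither error of TE or half-life nor a change in the set of isoforms, so it is only a yardstick there. At a coverage minimum of 15 or, chosen after seeing the data, none, percentiles of TE were 32.8 and 33.69 (Myod1) and 34.76 and 35.63 (Myog), and of half-life 1.927 (Myod1) and 27.41 (Myog) for both. The lowest decay count was 21, so for half-life both settings hold the same isoforms and had to give the same values. At a minimum of 100 the percentiles were 26.43 and 28.59 for TE and 0.1653 and 11.37 for half-life. Among annotated isoforms they were 29.07 and 31.31 for TE and 21.39 for the Myog half-life, and among isoforms of like UTR lengths 44.57, 36.09 and 25.69. The coverage-weighted mean moved Myod1 TE to 32.67, and the median over isoforms gave 34.09 and 36.08 for TE and 24.78 for the Myog half-life. The share of the main 5′ end among isoforms with at least 30 counts was 67.35% (Myod1, polysome), 90.93% (Myod1, decay) and 100% (Myog, polysome). Over ends listed in both tables, added after seeing the data, it was 82.24, 86.2, 97.66 and, for Myog in the decay table, 98.49%. Joining 5′ ends within 10 nt left every share of the main 5′ end unchanged, as it had to. No other listed 5′ end lay within 10 nt of a main one, so this setting could not test the shares. Those values are among the 16. Summed per 3′ end, coverage percentiles were 91.0 (Myog, polysome), 78.92 (Myod1, decay) and 93.93 (Myog, decay), against 94.83, 84.04 and 95.87. Every alternative kept the Myod1 half-life under percentile 2 and both TE values below the median. The cause of these shifts was not tested.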

Other observations

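A few internal 5′ ends of the regulators lay at a stretch of sequence that both share. The longest stretch shared by deposited 5′ UTRs of both genes, the only sequences compared, is 21 nt. It lies in the region that encodes the helix-loop-helix domain common to both proteins. It begins 369 nt after the first base of the Myod1 start codon (chr7:46026466-46026486) and 285 nt after that of Myog (chr1:134218079-134218099), both GRCm39 and plus strand.
Shared stretch: aaagtgaatgaggccttcgag
A Myod1 start lay on the base before it, at 46026465, with 20 polysome counts and a TE of 0.000481. Myog starts lay on its base 6 in the polysome table, with 22 counts and a TE of 0.000635, and on its base 2 in the decay table, with 36 counts and a half-life of 5.21. These are 1 of 8 Myod1 and 1 of 4 Myog coding-region starts of the polysome table and the 1 Myog start of that kind in the decay table; the 1 Myod1 decay start and the others, among them the most covered with 87 counts, lay elsewhere. Coding bases entered the search only through the 5′ UTRs of isoforms that start inside the coding region. No Myod1 5′ UTR held the bases just before 46026465, so the nearness of that start to the stretch was partly built in. The pattern was noticed after the values were seen, and its cause was not tested.

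Of the 34 isoforms with a shorter half-life than the main Myod1 isoform, 15 could be named, and they were chosen by that value. Beside Id3 they include Ier5l (2.43, 71 counts), Sertad1 (2.95, 106 counts), the small GTPase gene Rhob (3.50, 69 counts), Hyal2 (3.81, 111 counts) and Osgin1 (4.08, 90 counts). The 34 isoforms belong to 33 different 3′ ends.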
